A study of Mus musculus with 79 samples.

Results

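The 8 genes described here mark the B lineage and were followed in the whole lung RNA of 79 mice, across genotype, cigarette smoke exposure and exposure duration. Cd79a, Cd79b, Ms4a1, Cr2 and Fcer2a were taken as B cell genes and Jchain, Mzb1 and Tnfrsf17 as plasma cell genes. They were chosen by name, as the rows of the array table that map to these symbols, and all 8 were found, with 1 row each among 31350 rows. The rows carry the transcript identifiers NM_007655 (Cd79a), NM_008339 (Cd79b), NM_007641 (Ms4a1), NM_007758 (Cr2), NM_001253737 (Fcer2a), NM_152839 (Jchain), NM_027222 (Mzb1) and NM_011608 (Tnfrsf17).

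The mice were wild-type (WT) C57BL/6J animals and littermates that carry an Scnn1b transgene in airway epithelial cells (βENaC), which raises sodium absorption and leaves the airway surface dehydrated and mucus-laden. They were 5 to 7 weeks old and of both sexes, and breathed either the smoke of 6 reference cigarettes a day or room air in the same chamber (sham). Exposure lasted 1 day or 5 days, and the right lung was taken 4 hours after the last one. At 1 day there were 10 mice in each combination of genotype and exposure, and at 5 days 11 WT sham, 9 WT smoke, 9 βENaC sham and 10 βENaC smoke mice. Group labels came from the sample titles, because for 13 WT mice of the smoke groups the source entry reads βENaC, against title and genotype. Scnn1b lay between 8.42 and 9.48 in WT and between 11.52 and 11.88 in βENaC mice on the log2 scale. This check is partly circular, because the study set the genotype of 1 mouse by its Scnn1b level.

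B cells carry an antigen receptor whose signal passes through CD79A and CD79B. CD20, the product of Ms4a1, lies in the membrane of mature B cells. Cr2 encodes complement receptor 2 (CD21), which lowers the threshold of the receptor, and Fcer2a encodes CD23, the low-affinity IgE receptor, found on follicular B cells. After activation some B cells become plasma cells, which secrete antibody. Jchain joins the subunits of dimeric IgA and pentameric IgM, Mzb1 is a chaperone of the endoplasmic reticulum that helps antibody assembly, and Tnfrsf17 encodes BCMA, a survival receptor of plasma cells. In the airway, dimeric IgA is carried across the epithelium by the polymeric Ig receptor, encoded by Pigr. In whole lung RNA, fewer cells of a type and less RNA per cell cannot be told apart.

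Promoter windows of 300 bases, from 250 before to 50 after the annotated start, were taken from the RefSeq table (build GRCm38.p6). They covered 5 of the 8 genes, Cd79a, Cr2, Fcer2a, Jchain and Tnfrsf17, in 7 windows because Fcer2a has 3. Cd79b and Ms4a1 had no window in that table. Mzb1 was left out of the search, so the motif counts below do not cover it. The stretches before the start are shown for Cd79a and Cr2, which varied together from mouse to mouse, and for Jchain, which differed most between genotypes. Capitals mark the E-box CAGGTG or its reverse complement CACCTG, the motif of the E proteins that act in B cell development.
Cd79a (chr7:24897247-24897496, + strand): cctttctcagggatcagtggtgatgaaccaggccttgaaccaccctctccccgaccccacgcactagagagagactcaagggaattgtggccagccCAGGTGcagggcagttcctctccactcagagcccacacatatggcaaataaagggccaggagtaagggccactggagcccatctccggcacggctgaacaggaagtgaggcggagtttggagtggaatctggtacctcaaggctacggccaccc
Cr2 (chr1:195176720-195176969, - strand): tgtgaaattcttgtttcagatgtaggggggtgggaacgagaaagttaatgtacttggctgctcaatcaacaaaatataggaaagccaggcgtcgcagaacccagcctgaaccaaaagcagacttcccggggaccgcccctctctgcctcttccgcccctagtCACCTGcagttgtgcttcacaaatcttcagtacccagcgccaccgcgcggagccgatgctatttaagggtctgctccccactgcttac
Jchain (chr5:88527898-88528147, - strand): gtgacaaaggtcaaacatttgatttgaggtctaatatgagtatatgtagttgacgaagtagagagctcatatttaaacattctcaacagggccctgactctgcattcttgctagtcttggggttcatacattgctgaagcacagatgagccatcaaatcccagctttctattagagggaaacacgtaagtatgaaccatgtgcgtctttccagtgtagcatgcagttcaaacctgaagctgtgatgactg
Counted from the start, the first base of the E-box lay at -154 in Cd79a and at -88 in Cr2. In Jchain it began at base 6 after the start, outside the stretch printed. Of the 7 windows 4 held it on either strand, against 20.21% of all 32851 listed windows. The ETS core GGAAGT or ACTTCC was in 3 of the 7 windows and in 23.77% of all windows. The octamer ATGCAAAT or ATTTGCAT was in none of the 7 windows and in 1.74% of all. The motif searches were run separately, on both strands, and a match says nothing about binding.

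The authors deposited log2 intensities normalized across arrays. The values in this table ran from 1.98 to 13.41, and Cd79a (mean 8.80 over all mice), Cd79b (8.22), Ms4a1 (7.79), Jchain (7.35) and Fcer2a (7.20) lay above the means of 76.3% to 91.4% of rows. Cr2 (5.80) and Mzb1 (5.22) lay nearer the middle. Tnfrsf17, at 3.46, lay above 32.5% of rows, so its differences are small shifts near the dim end of the scale. Probes of different genes differ in brightness, and these means do not rank the genes by transcript number. The level of Sftpc and the other 5 lung epithelium markers averaged between 11.49 and 11.81 in every mouse.

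Some arrays stood apart from the rest, and leaving 4 of them out was not among the planned settings. The lowest mean correlations with the other arrays were 0.9787 for 1 βENaC sham male at 1 day (replicate 1), and 0.9808 to 0.9832 for 3 mice at 5 days, a WT smoke female (replicate 2), a βENaC smoke female (replicate 3) and a βENaC sham male (replicate 3). Calls and counts that change without these 4 arrays are given with and without them. In addition, 5 mice had a mean of the 5 B cell genes between 5.85 and 6.41, against 6.82 or more in the other 74. They were a WT smoke female and a βENaC smoke female (5.85 at 5 days and 6.14 at 1 day), a βENaC smoke male and a βENaC sham male at 5 days (6.14 and 6.21), and a WT smoke male at 5 days (6.41).

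**Figure D1:**
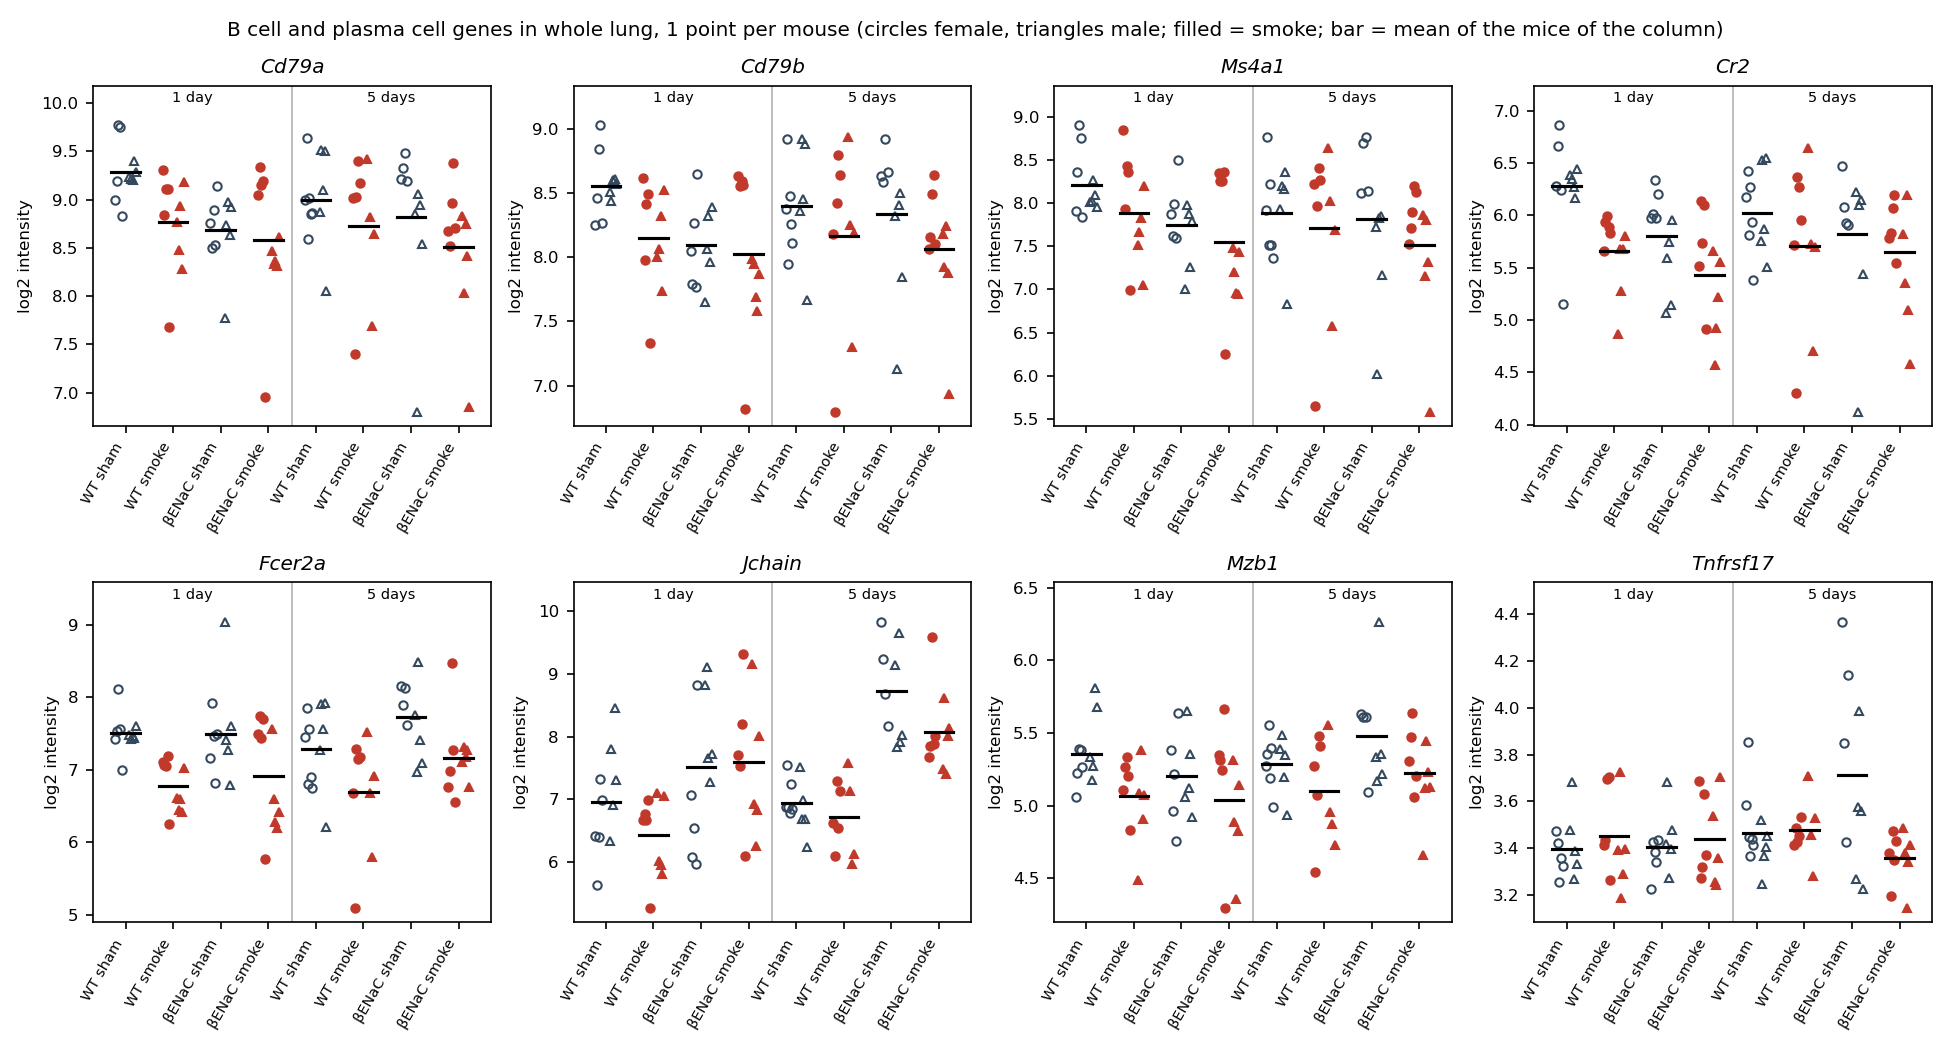
Log2 intensity of the 8 genes in each of the 79 mice, in columns by duration, genotype and exposure. Circles are females and triangles males, filled points are smoke-exposed mice, and bars are column means. Jchain stands higher in βENaC than in WT columns at 5 days, Cr2 and Fcer2a stand lower in smoke columns at 1 day, and the same few mice are low for Cd79a, Cd79b and Ms4a1.

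The smoke comparison asked whether lungs of smoke-exposed mice held less or more of these transcripts than lungs of sham-exposed mice. After 1 day, Fcer2a and Cr2 fell, by 1.57-fold and 1.41-fold, and they were the only 2 of the 8 genes called, where called means an adjusted p below 0.05 over all 31350 rows in limma's moderated test with genotype, exposure and sex as terms. Over all rows, 4.43% were called lower for smoke at 1 day. The median coefficient of the 8 genes was -0.25, against 0.01 over all rows.

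In WT mice at 1 day, Fcer2a ran from 7.00 through a median of 7.47 to 8.12 in sham and from 6.26 through 6.81 to 7.20 in smoke-exposed mice. In βENaC mice it ran from 6.78 through 7.44 to 9.04 in sham and from 5.76 through 7.01 to 7.75 in smoke-exposed mice. In each genotype 5 smoke-exposed mice lay below every sham mouse, and the groups overlapped. The coefficient, smoke minus sham, was -0.65 (SE 0.16, limma adjusted p = 0.00561), and 16 of 20 smoke-exposed mice lay below the sham mean of their own genotype and sex.

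Cr2 in WT mice at 1 day ran from 5.16 through 6.31 to 6.86 in sham and from 4.86 through 5.74 to 5.99 in smoke-exposed mice. In βENaC mice it ran from 5.07 through 5.97 to 6.34 in sham and from 4.57 through 5.54 to 6.14 in smoke-exposed mice. The WT sham males were tight, at 6.17 to 6.45, and every WT smoke-exposed mouse lay below them. The coefficient was -0.49 (SE 0.12, limma adjusted p = 0.0057), with 17 of 20 smoke-exposed mice below their matched sham mean. Both calls held whichever single mouse was omitted.

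The receptor genes and CD20 pointed the same way without passing the test. The coefficients were -0.31 for Cd79a (SE 0.15, limma adjusted p = 0.215), -0.24 for Cd79b (SE 0.12, adjusted p = 0.269) and -0.26 for Ms4a1 (SE 0.15, adjusted p = 0.32). Their mice overlapped widely, Cd79a running from 7.77 through 8.98 to 9.77 in the 20 sham and from 6.95 through 8.80 to 9.34 in the 20 smoke-exposed mice. Among the plasma cell genes the coefficients were -0.22 for Jchain (SE 0.28), -0.23 for Mzb1 (SE 0.10, limma adjusted p = 0.149) and 0.04 for Tnfrsf17 (SE 0.05), none of them called.

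After 5 days of smoke none of the 8 genes was called in limma or in an ordinary linear model, while 3.37% of all rows were called lower. All 8 coefficients were negative, with a median of -0.25 against -0.00 over all rows, and 4 genes had an unadjusted p below 0.05. Fcer2a came nearest, at -0.58 (SE 0.18, limma adjusted p = 0.0511). It ran from 6.21 through 7.56 to 8.48 in the 20 sham and from 5.09 through 7.10 to 8.48 in the 19 smoke-exposed mice, of which 16 lay below their matched sham mean. Without the 4 arrays that stood apart it was called at 5 days, and leaving out single mice moved its adjusted p between 0.0146 and 0.0901. The other 3 with an unadjusted p below 0.05 were the plasma cell genes, Jchain at -0.44 (SE 0.18), Mzb1 at -0.22 (SE 0.09) and Tnfrsf17 at -0.17 (SE 0.07), with limma adjusted p of 0.171, 0.159 and 0.179. Counts at an unadjusted p, here and below, come without the share of all rows at that level. They are not read as results about the genes.

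**Figure D2:**
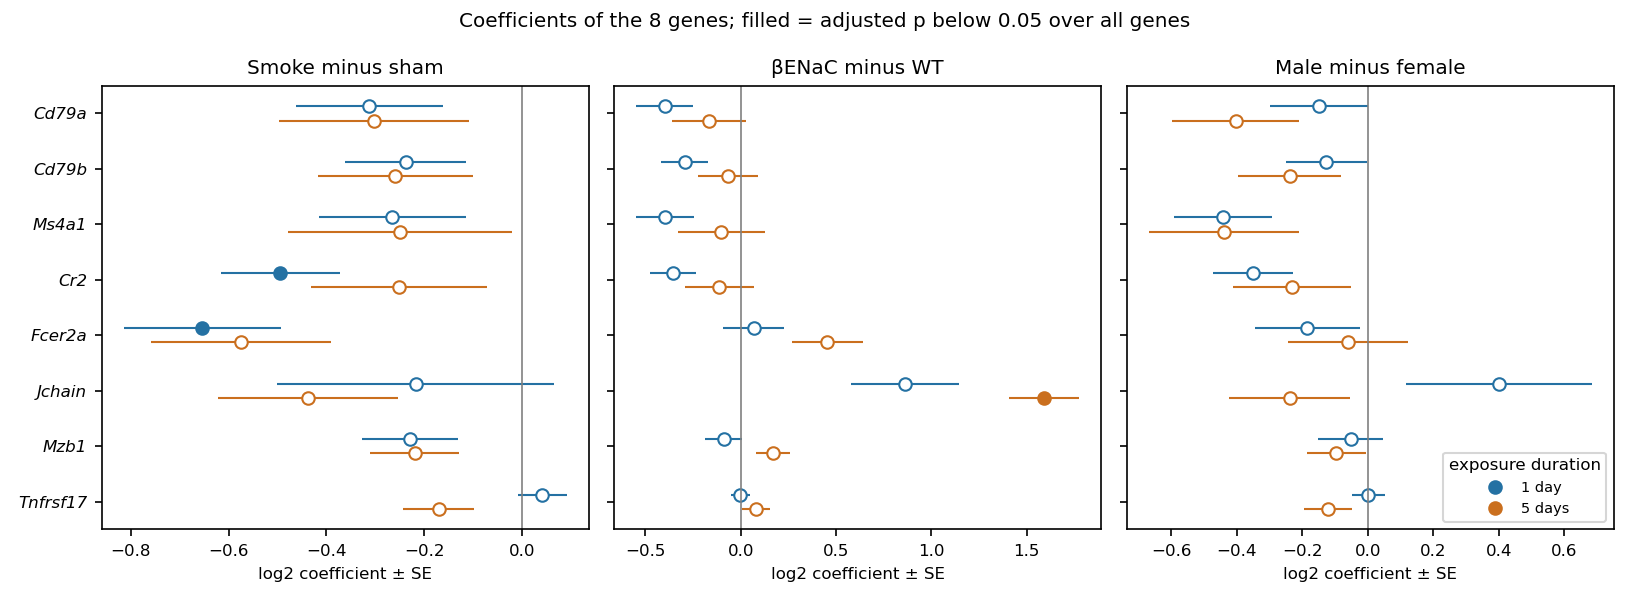
Coefficients of the 8 genes with their standard errors on the log2 scale, for smoke minus sham, βENaC minus WT and male minus female. Blue is 1 day and orange 5 days, and filled points are called. Only Fcer2a and Cr2 for smoke at 1 day and Jchain for genotype at 5 days are filled.

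The smoke effect was not found to differ between durations, genotypes or sexes for any of the 8 genes. No gene was called for the exposure by duration term, for which 0.612% of rows were called, nor for exposure by genotype or exposure by sex, each with 0.00638% of rows at 1 day and 0% at 5 days. The lowest limma adjusted p among the 56 interaction tests, those of genotype and sex by duration included, was 0.348, for Tnfrsf17 in exposure by duration, and 5 of the 56 had an unadjusted p below 0.05. The exposure by duration fit held those terms alone, and with genotype, sex and their interactions with duration added the adjusted p of Tnfrsf17 was 0.259. For Cr2, called at 1 day and not at 5 days, a difference between durations was not shown, with an exposure by duration coefficient of 0.24 (SE 0.23).

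Within single genotypes, smoke against sham was called for 1 gene at 1 duration. Tnfrsf17 in βENaC mice at 5 days fell by 0.38 on the log2 scale (SE 0.08, limma adjusted p = 0.00528), where 0.781% of rows were called lower. The 4 βENaC sham females stood at 4.37, 3.85, 3.43 and 4.14 and the 5 sham males at 3.27, 3.58, 3.99, 3.56 and 3.23. The smoke-exposed females stood at 3.38, 3.19, 3.47, 3.35 and 3.43 and the males at 3.49, 3.38, 3.14, 3.34 and 3.42. Of the 9 sham mice 6 lay above every smoke-exposed mouse, and the other 3 lay among them. In WT mice at 5 days, where 1.06% of rows were called lower, the Tnfrsf17 coefficient was 0.02 (SE 0.08). The difference between genotypes, -0.39 (SE 0.13), was not called (limma adjusted p = 1.00). No gene was called by limma in WT mice at 1 day (2.36% of rows), in βENaC mice at 1 day (1.17%) or in WT mice at 5 days, with 5, 1 and 1 of the 8 at an unadjusted p below 0.05. Without the 4 arrays that stood apart, Fcer2a was also called in WT mice at 1 day.

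The wider B cell programme was read from 33 genes of B cell identity and receptor signalling, a list written with earlier results of these data known. At 1 day all 33 had negative smoke coefficients, with a median of -0.24, and 11 fell and none rose in the test. The 4 called genes with the largest coefficients were Cd180 (-0.53, SE 0.09), a Toll-like receptor homologue of B cells, Bank1 (-0.52, SE 0.13), a scaffold of receptor signalling, H2-Ob (-0.43, SE 0.11), which tempers antigen loading, and Fcrl1 (-0.38, SE 0.12), an Fc receptor-like protein. At 5 days 31 of 33 were negative, with a median of -0.24, and 5 fell, among them Cd180 (-0.46, SE 0.13), Plcg2 (-0.33, SE 0.09), Pou2f2 (-0.33, SE 0.10), which encodes Oct-2, and Lyn (-0.18, SE 0.04), a kinase of the receptor. Without the 4 arrays the counts were 12 lower at 1 day, and 5 lower and 1 higher at 5 days. Some genes of this list, Syk and Btk among them, are shared with myeloid cells, and the part of such cells was not tested.

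Of 11 further genes of plasma cells and antibody secretion, 4 fell at 1 day and 3 at 5 days (4 without the 4 arrays), and none rose. At 1 day these were Pigr (-0.59, SE 0.13, limma adjusted p = 0.00131), Fkbp11, Cd38 and Txndc5, of which Pigr is an epithelial gene and no plasma cell marker. At 5 days they were Irf4 (-0.31), Cd38 (-0.24) and Txndc5 (-0.16), while Pigr had a coefficient of -0.01 (SE 0.11). The list medians were -0.08 and -0.05. Among 11 ligands and attractants of B cells, Cxcl12, which guides B and plasma cells, fell at both durations (-0.39, SE 0.07, and -0.35, SE 0.06), and Tnfsf13b, the survival factor BAFF, fell at 5 days (-0.25, SE 0.05, limma adjusted p = 0.00233). Cxcl13, the attractant of B cell follicles, had coefficients of -0.28 (SE 0.22) and -0.17 (SE 0.20) and was not called.

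Transcripts of other blood cells moved with smoke beside these genes. The 5 red cell genes measured all had positive coefficients, with medians of 0.56 and 0.97, and 1 rose at 1 day (none without the 4 arrays that stood apart) and 5 at 5 days. The share of all rows called higher for smoke is not given, so these counts are not read as results about the red cell genes. The mean level of the 5 ran from 6.72 to 9.61 in sham and from 8.04 to 11.05 in smoke-exposed mice at 1 day, and from 7.59 to 9.79 and 8.79 to 10.43 at 5 days. Of 6 monocyte genes 4 fell at 1 day and 5 at 5 days, with medians of -0.45 and -0.50. Their mean ran from 7.10 to 8.74 in sham and from 7.00 to 7.80 in smoke-exposed mice at 1 day, and from 7.37 to 8.05 and 6.52 to 7.73 at 5 days. Of 12 T cell markers 1 fell at 1 day and none at 5 days (limma, 2 with an unadjusted p below 0.05 there), with medians of -0.05 and -0.16, and no defining marker (Cd3e, Cd3d, Cd3g, Cd4 or Cd8a) was near the bottom of the scale. Their mean ran from 5.99 to 6.85 in sham and 5.65 to 7.57 in smoke-exposed mice at 1 day, the highest being a βENaC female whose 4 thymus genes averaged 6.26, and from 5.92 to 6.96 and 5.60 to 6.87 at 5 days. The part of these shifts in the B cell results was not tested.

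**Figure D3:**
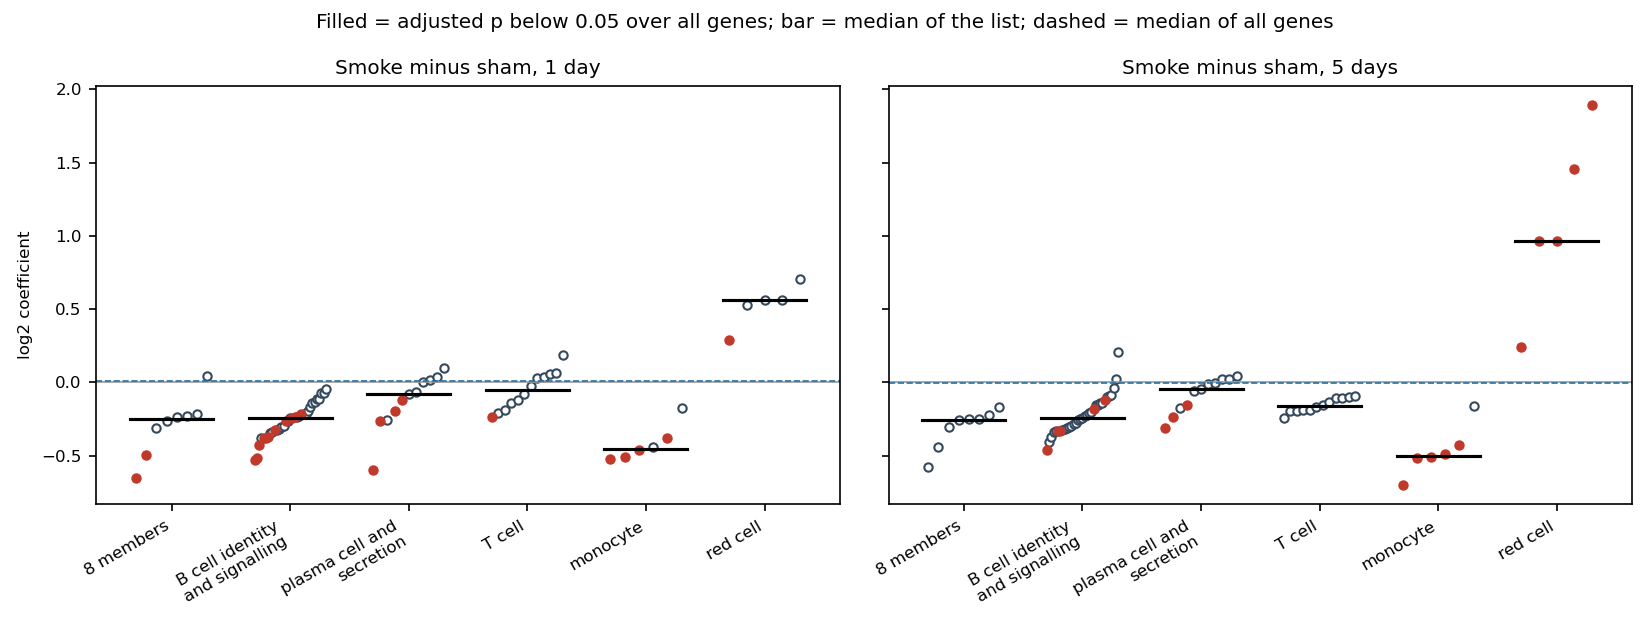
Smoke minus sham coefficients on the log2 scale for the 8 genes and 5 lists, at 1 day and 5 days, 1 point per gene. Filled points are called, bars are list medians and the dashed line is the median of all genes. Most B cell points lie below 0, with a median of -0.24 at both durations. The monocyte median is lower still, and the red cell points lie above 0.

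The genotype comparison asked how the βENaC lung differs from the WT lung. Jchain rose 3.01-fold in βENaC mice at 5 days, and no other of the 8 genes was called at either duration. At 5 days 4.85% of all rows were called higher in βENaC mice, and at 1 day 3.58%. The share called lower is not given, so counts of genes called lower in βENaC mice, below, are not read as results about those genes.

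In sham-exposed mice at 5 days, Jchain ran from 7.84 through a median of 8.69 to 9.83 in 9 βENaC mice and from 6.25 through 6.88 to 7.55 in 11 WT mice. Every βENaC sham mouse lay above every WT sham mouse. In smoke-exposed mice at 5 days it ran from 7.41 through 7.95 to 9.59 in 10 βENaC mice and from 5.97 through 6.63 to 7.58 in 9 WT mice, and 8 of the 10 lay above every WT mouse. The coefficient was 1.59 (SE 0.18, limma adjusted p = 6.07e-08), and 19 of 19 βENaC mice lay above the WT mean of their own exposure and sex. It stayed between 1.51 and 1.66 with each mouse left out. Of the red cell genes 3 of 5 were called lower in βENaC mice at 5 days (2 without the 4 arrays), with a median of -0.34, and of the monocyte genes 1 of 6 was called higher, with a median of 0.13, and their part in the Jchain result was not tested.

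At 1 day Jchain was more scattered. It ran from 5.97 through 7.47 to 9.11 in βENaC sham and from 5.64 through 6.94 to 8.46 in WT sham mice, and from 6.09 through 7.62 to 9.32 in βENaC smoke and from 5.26 through 6.68 to 7.09 in WT smoke mice. Among βENaC sham females 1 mouse stood at 8.82 and the other 4 at 7.07, 6.08, 6.55 and 5.97. The coefficient was 0.86 (SE 0.28, limma adjusted p = 0.0633), and 14 of 20 βENaC mice lay above their matched WT mean. It was called with 1 fit over all mice, with 1 row per symbol and without the dimmest 30% of rows. The difference between durations was 0.73 (SE 0.35) and was not called (limma adjusted p = 0.818), and 0% of all rows were called for genotype by duration and 0.654% for sex by duration.

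Within single exposures Jchain was called higher in βENaC mice in 3 of 4 contrasts. These were sham at 5 days (1.82, SE 0.34, limma adjusted p = 0.000207, with 2.87% of rows called higher), smoke at 5 days (1.35, SE 0.35, adjusted p = 0.0256, 0.935% of rows) and smoke at 1 day (1.17, SE 0.34, adjusted p = 0.0408, 2.03% of rows). In sham mice at 1 day, where 0.874% of rows were called higher, it was 0.55 (SE 0.34). The call in smoke at 5 days was lost without the 4 arrays that stood apart (1.09, adjusted p = 0.149). Tnfrsf17 was called higher in βENaC sham mice at 5 days (0.28, SE 0.08, limma adjusted p = 0.0314), through the same high mice as above, and the call was lost without the 4 arrays and with the replicate block.

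The remaining plasma cell gene, Mzb1, had genotype coefficients of -0.09 (SE 0.10) at 1 day and 0.17 (SE 0.09, limma adjusted p = 0.277) at 5 days. The B cell genes did not follow Jchain. At 1 day Cd79a, Ms4a1, Cr2 and Cd79b had coefficients of -0.40, -0.40, -0.35 and -0.30, with limma adjusted p between 0.0797 and 0.188, and at 5 days between -0.17 and -0.07. Cd79a in the 20 WT mice at 1 day ran from 7.68 through 9.15 to 9.77 and in the 20 βENaC mice from 6.95 through 8.68 to 9.34. Fcer2a differed from them, at 0.07 (SE 0.16) at 1 day and 0.45 (SE 0.18, limma adjusted p = 0.119) at 5 days, when 16 of 19 βENaC mice lay above their matched WT mean, and at 0.24 (SE 0.15) at 5 days without the 4 arrays that stood apart.

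Of the 11 secretion genes, 2 were higher and 2 lower in βENaC mice at 1 day, and 2 were higher at 5 days. Without the 4 arrays 2 were higher and 1 lower at each duration. Pigr, which transports the polymers that the J chain holds together, was 1.21 higher after 1 day (limma adjusted p = 7.67e-09, SE 0.13) and 1.34 higher after 5 days (adjusted p = 1.67e-11, SE 0.11). Fkbp11, an isomerase of secretory cells, rose by 0.34 at 1 day, when Cd38 and Prdm1, which encodes the plasma cell regulator Blimp-1, fell by 0.24 and 0.19. Ell2, an elongation factor of antibody-secreting cells, rose by 0.18 at 5 days. Among the ligands Cxcl12 rose by 0.61 and 0.56 and Il6 by 0.74 and 0.49 at 1 and 5 days, and Tnfsf13b by 0.24 at 5 days. Il6, with a mean of 3.61 over all mice, lay near the dim end of the scale, as Tnfrsf17 did. Cxcl13 had coefficients of 0.23 (SE 0.22) and 0.51 (SE 0.20) and was not called.

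Of the 33 B cell identity genes 1 was called higher in βENaC mice at 1 day and 3 at 5 days, and none lower, with medians of -0.19 and 0.01. They were Fcgr2b (0.58 and 0.73), the inhibitory Fc receptor that macrophages also carry, and at 5 days Syk (0.35) and Btk (0.34), kinases that myeloid cells share. Only 6 immunoglobulin segments had a symbol here, through tables of the study that were partly chosen on these arrays, so their counts are no independent evidence. Among them the heavy chain variable segment Ighv12-3 (1.23 and 1.80) and 1 kappa variable segment rose in βENaC mice at 1 and 5 days. For smoke 3 of the 6 fell at each duration (1 of the 6 at 5 days without the 4 arrays that stood apart), Ighv12-3 with the largest coefficient of the 6 at 5 days (-1.08). No constant region was among the 6.

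The sex comparison, male minus female, called none of the 8 genes in limma or in an ordinary linear model, while 2.07% of rows were called lower in males at 1 day and 0.144% at 5 days. Ms4a1 and Cr2 came close at 1 day, with 2 of 8 at an unadjusted p below 0.05. Ms4a1 ran from 6.25 through 8.26 to 8.90 in 20 females and from 6.95 through 7.73 to 8.27 in 20 males, and 18 of 20 males lay below the matched female mean (-0.44, SE 0.15, limma adjusted p = 0.0543). Cr2 had a coefficient of -0.35 (SE 0.12, adjusted p = 0.0592). Both were called under 5 of the 10 other settings, array median centring and quantile normalization among them. At 5 days the coefficients were -0.44 (SE 0.23) and -0.23 (SE 0.18), and 1 of 8 genes, Cd79a at -0.40 (SE 0.19), had an unadjusted p below 0.05.

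The order of the 16 groups of genotype, exposure, sex and duration was soft. For 7 of the 8 genes all 15 neighbours in the order of group means lay closer to each other than 1 standard deviation between mice of a group. βENaC sham females at 5 days were highest for Cd79b, Ms4a1, Fcer2a, Jchain, Mzb1 and Tnfrsf17, and βENaC smoke males, at 1 or 5 days, lowest for all but Jchain. Jchain ran from 6.38 ± 0.64 (SD, n = 5) in WT smoke males at 1 day to 8.98 ± 0.71 (SD, n = 4) in βENaC sham females at 5 days. Tnfrsf17 was the exception, with a gap of 0.42 between neighbours where the standard deviation was 0.18. The highest Jchain of all mice, 9.83, was in a βENaC sham female at 5 days (replicate 1). Her 4 genes of lymphoid tissue stroma averaged 5.10, against a median of 4.06 in sham mice at 5 days. A WT sham female at 5 days (replicate 4) had the highest stroma mean, 5.50, with Jchain at 6.78. The part of lymphoid tissue in these levels was not tested.

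Mouse-to-mouse variation was shared among the B cell genes. The deviations of the 79 mice from their group means correlated among all 10 pairs of B cell genes, with Pearson r from 0.62 to 0.96. Cd79a and Cd79b, which work as a pair, had r = 0.96 (Spearman rho = 0.92, adjusted permutation p = 2.8e-05, and r = 0.95 without the 2 mice farthest from the median). Among the plasma cell genes, Jchain and Mzb1 had r = 0.63 (rho = 0.57, adjusted permutation p = 2.8e-05, and 0.60 without the 2 farthest). Between B cell and plasma cell genes r ran from 0.11 to 0.57. The B cell genes did not vary alike in all pairs, since Fcer2a had r = 0.62 with Cd79a (rho = 0.63) and r = 0.57 with Jchain (rho = 0.53). Of all 28 pairs 22 passed an adjusted p of 0.05 by Pearson and by Spearman (two-sided permutation within groups), and the 6 that did not all involved Tnfrsf17. Within single durations 18 pairs passed at 1 day and 20 at 5 days by Pearson, and 18 and 16 by Spearman. Of the 10 B cell pairs 8 passed at 1 day by Pearson and 9 by Spearman, with Pearson r from 0.40 to 0.96. All 10 passed at 5 days, with r from 0.74 to 0.96. At 1 day Fcer2a had r = 0.45 with Cd79a (rho = 0.51, and r = 0.08 without the 2 farthest mice).

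**Figure D4:**
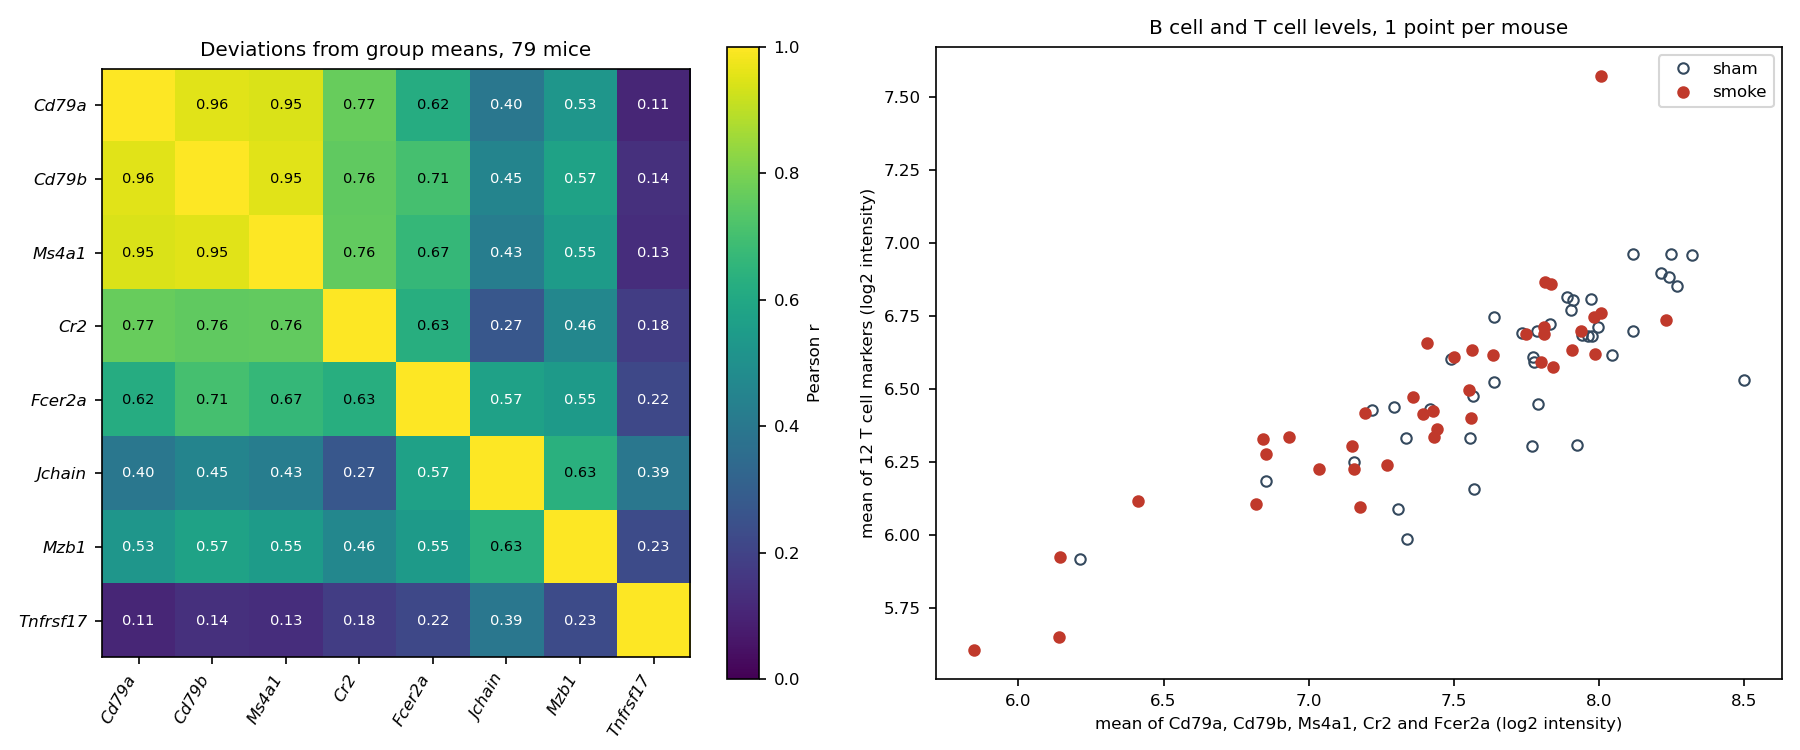
Left, Pearson r between the 8 genes over 79 mice, on deviations from the 16 group means. Right, mean log2 intensity of the 5 B cell genes against that of 12 T cell markers, 1 point per mouse, open for sham and filled for smoke. Cd79a, Cd79b and Ms4a1 form a block at r of 0.95 to 0.96, and the mice lowest on the B cell axis, at 5.85 to 6.41, are also low on the T cell axis.

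The 5 mice with the lowest B cell means had T cell means of 5.60 to 6.12 and monocyte means of 6.52 to 7.73. A βENaC sham male at 5 days (replicate 2) was at 6.80 for Cd79a and 4.13 for Cr2 but at 6.97 for Fcer2a and 7.84 for Jchain. A βENaC sham male at 1 day (replicate 1), the array least like the others, was at 7.77 for Cd79a, the lowest of its group, and at 9.04 for Fcer2a, the highest of all mice.

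Among the genes most like the mean of the 5 B cell genes over the 79 mice, on deviations from group means, were Bank1 (r = 0.97), Cd22 (0.95), Ly6d (0.94), Bcl11a (0.94), Pou2af1 (0.94), Fcmr (0.93) and Ltb (0.93). These stood in the gene lists used here, Ltb among the ligands and the others in the B cell identity list. Those most like the mean of the 3 plasma cell genes were Acp5 (0.73), Wdfy4 (0.73), Man1a (0.71), P2rx4 (0.71), Blnk (0.71), Plcb2 (0.71), Septin3 (0.70) and Itgax (0.70). Only Blnk of these stood in the lists, and the familiar secretion genes Xbp1 and Irf4 were not among them.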

How the data were processed

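The authors hybridized right lung RNA of single mice to Affymetrix mouse gene arrays on 1 plate and deposited log2 intensities made by RMA (background subtraction, a correction for the sequence of each probe, quantiles made equal across arrays and a median polish over probes). The submitters' processing notes name Affymetrix Expression Console 1.4 and Partek 6.6, and no genome build is named in the files. The authors left out 1 mislabelled array. The deposited values were used unchanged. Rows were named through RefSeq identifiers (21057) or tables of the study (780), and 9513 had no symbol. Each duration was fitted in limma 3.58.1 (R 4.3.3) with terms for genotype, exposure and sex, with Benjamini-Hochberg adjustment over all 31350 rows. Exposure by genotype and by sex were added to these fits, exposure by duration was fitted over all mice with those terms alone, genotype and sex by duration with every term and its interaction with duration, and contrasts within genotype or exposure on the 16 group means. Correlations used 100000 permutations within groups (numpy 2.4.6, scipy 1.17.1), with 1e-05 the smallest p they can give. Beside the members, at most 4 called genes of each list were named, those with the largest coefficients, plus the ligands and Pigr. A result among the genes most like the B cell genes is not reported here. The members and lists were chosen with earlier results of these data known. Alternatives were other scaling, filters, array weights, priors, the replicate number as a block and each mouse left out. The fits were tested on simulated data. No counting depth applies to arrays, and the number of mice limits the precision.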

Additional observations from a re-analysis of the deposited data

Results flagged for a closer look

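In 128 combinations of group and gene, 18 held a mouse whose distance from the nearest other mouse was large for the range of its group of 4 to 6 (Dixon's test at 95%), where chance alone marks about 1 in 20. These came from 11 mice. The genes vary together from mouse to mouse, so the 128 combinations are not separate trials, and whether 18 exceeds chance was not tested.

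The βENaC smoke female replicate 5 at 1 day was lowest of its group for Cd79a (6.95), Cd79b (6.81), Ms4a1 (6.25) and Fcer2a (5.76). The WT smoke female replicate 2 at 5 days was lowest for Cd79a (7.40), Ms4a1 (5.65) and Fcer2a (5.09), and the WT smoke female replicate 5 at 1 day for Cd79a (7.68), Fcer2a (6.26) and Jchain (5.26).

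Single low values were Cd79a in the βENaC sham male replicate 1 at 1 day (7.77) and replicate 2 at 5 days (6.80), Cd79b in the βENaC smoke male replicate 5 at 5 days (6.93), Ms4a1 in the WT sham male replicate 5 at 5 days (6.83) and Mzb1 in the βENaC sham female replicate 4 at 5 days (5.09). Single high values were Fcer2a in the WT sham male replicate 5 at 1 day (7.60, in a group whose others lay between 7.43 and 7.47), Jchain in the βENaC smoke female replicate 3 at 5 days (9.59) and Mzb1 in the βENaC sham male replicate 3 at 5 days (6.27).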

How the results depend on the processing

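With the other settings tried, the 2 genes called for smoke at 1 day, Jchain for genotype at 5 days, no gene for sex at 5 days and no gene for any interaction stayed the same in number, also with each mouse left out (2 to 2, 1 to 1, 0 to 0 and 0 to 0). For smoke at 5 days, quantile normalization, leaving out the dimmest 30% of rows, 1 row per symbol, array weights, the replicate block, leaving out the 4 arrays and 1 fit over all mice each gave 1 gene in place of 0 (Fcer2a), and leaving out 11 of 39 mice in turn did too (0 to 1). For sex at 1 day, median centring, quantile normalization, the 30% filter, 1 row per symbol and array weights each gave 2 in place of 0 (Ms4a1 and Cr2), with 0 to 2 on leaving out mice. For genotype at 1 day, the 30% filter, 1 row per symbol and 1 fit over all mice gave 1 in place of 0 (Jchain), with 0 to 2 on leaving out mice, the 2 being Cd79a and Ms4a1 without the WT smoke female replicate 5. For smoke within each genotype the count was 2 in place of 1 without the 4 arrays and 1 to 2 on leaving out mice, 2 without the WT sham female replicate 5 at 1 day. For genotype within each exposure it was 2 in place of 4 without the 4 arrays and 3 to 4 on leaving out mice.

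Among the within-exposure calls, Jchain in smoke at 5 days was lost without any 1 of 5 mice (adjusted p up to 0.105), namely WT smoke female 2, βENaC smoke female 3, βENaC smoke male 2 and WT smoke males 4 and 5. Jchain in smoke at 1 day was lost without any 1 of 11 mice (up to 0.147), and Tnfrsf17 in sham mice at 5 days without any 1 of 6 (up to 0.170). Tnfrsf17 for smoke in βENaC mice at 5 days was kept throughout.

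The following 4 coefficients that were not called changed sign. Fcer2a for genotype at 1 day was -0.0217 without the 4 arrays and -0.0217 to 0.1342 on leaving out mice, and Fcer2a for sex at 5 days -0.1417 to 0.0157. Tnfrsf17 for sex at 1 day was -0.0137 with median centring, -0.0237 with array weights and -0.0135 to 0.0166 on leaving out mice, and for genotype at 1 day -0.0177 to 0.0134.

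The replicate numbers were not taken to pair mice. Mice of different groups with the same number had a median correlation of deviations of 0.0107 (64 of 266 above 0.1) and others of -0.0023 (229 of 1098). The highest were 0.6334 and 0.4526, and a median over all pairs does not settle whether some mice were paired. The replicate block moved the count for smoke at 5 days from 0 to 1, as above, and that for genotype within each exposure from 4 to 3. Dim probes such as that of Tnfrsf17 limit small differences most.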
